A study of Mus musculus with 12 samples.

Results

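B6 iNKT17 cells were compared with B6 gamma-delta 17 cells, on 4 of the 12 arrays of the series. The 4 arrays were chosen by their titles, 2 of B6 iNKT17 cells and 2 of B6 gamma-delta 17 cells, and each gene was read from its brightest probe set with exactly 1 gene symbol. The labels name the strain (B6), the cell phenotype and a replicate number, and give no genotype, treatment, age, sex or organ. Replicates are not said to come from separate animals, so p-values reflect the spread between the samples alone, and that spread may be technical. The extraction protocol names frozen tissue while the labels name cells, and the sources used here do not say how the cells were obtained. The other groups of the series are B6 ROR- cells (2 arrays), BALB/c iNKT17 cells (3) and BALB/c ROR- cells (3); they enter through the shared estimate of spread, and levels of the first 2 of these groups are given beside the results.

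Invariant natural killer T (iNKT) cells carry a semi-invariant alpha-beta T cell receptor that sees lipids shown by CD1d, while gamma-delta T cells carry a receptor of a gamma and a delta chain. Both lineages have a branch that is set early in life to make interleukin 17 (IL-17) and that answers to interleukin 23 and interleukin 1. IL-17 acts on epithelial and stromal cells, which then recruit neutrophils.

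All values are the deposited array values, taken as log2, so a difference of 1 is a 2-fold difference, and differences are iNKT17 minus gamma-delta 17. The medians of the tested genes lay between 5.32 and 5.38 on the 12 arrays. Across 41345 probe sets, the 2 iNKT17 arrays correlated at r = 0.985 and the 2 gamma-delta arrays at r = 0.981, while iNKT17 replicate 1 and gamma-delta replicate 2 correlated at r = 0.984. The dim level, the 30th percentile of the named probe sets, was 3.45; below it the size of a difference is uncertain. Tcf7, Trac and Trdc were not analysed here.

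Few genes passed the threshold between the 2 cell types, with 2 arrays in each group. Of 16667 genes tested, 28 (0.168%) passed an adjusted p of 0.05 in limma, 10 higher (0.06%) and 18 lower (0.108%) in iNKT17 cells, and 1417 (8.5%) had an unadjusted p under 0.05. The groups' arrays did not overlap in any of the 28, and 25 differed by at least 1 log2 unit. Genes called on this contrast are chosen for separation, so the absence of overlap adds no support to them. With 2 arrays per group a gene easily shows no overlap, and the share of all tested genes without overlap is not given here. The fit on the 4 arrays alone called 2 genes, and leaving out single arrays gave between 5 (without iNKT17 replicate 2) and 63 (without gamma-delta replicate 1). Cxcl3, Klf3, Cd163l1, Csn3 and Ctla2b passed whichever of the 12 arrays was left out.

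**Figure D1:**
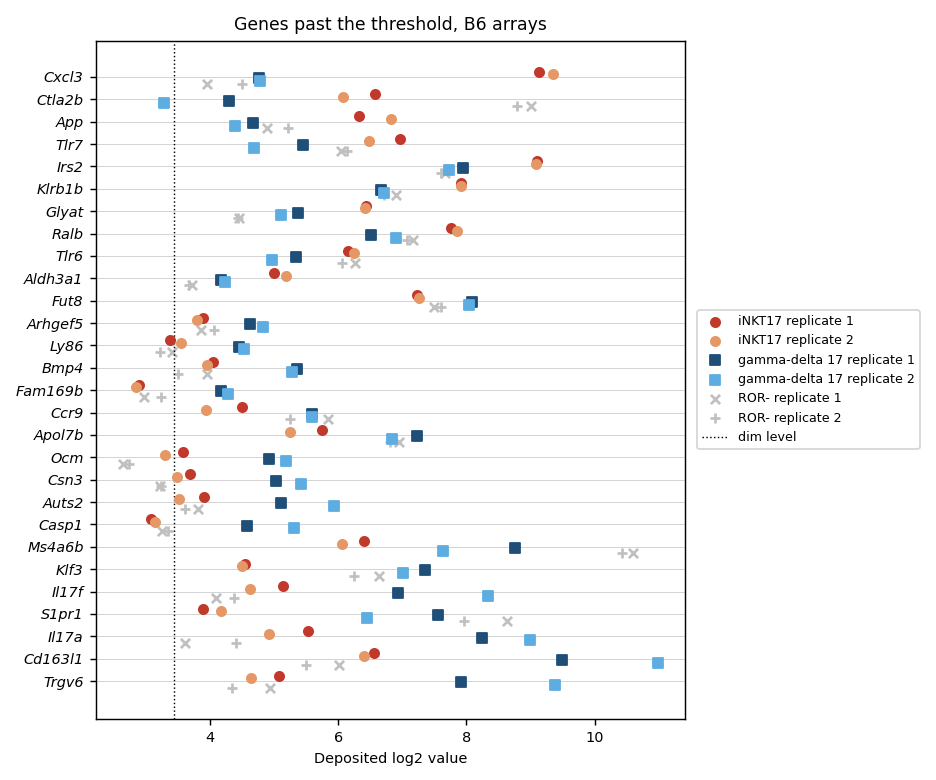
Deposited log2 value (x axis) of each of the 28 genes past the threshold (rows, from the largest rise to the largest fall in iNKT17 cells) on the B6 iNKT17, gamma-delta 17 and ROR- arrays, with the dim level as a dotted line; points of a row are offset vertically to stay visible. In every row both iNKT17 points lie on 1 side of both gamma-delta 17 points.

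Because the gamma-delta arrays differ from each other, each gene was also set against each of them. At least 1 log2 unit in the same direction from both gamma-delta arrays separated 65 genes (0.39%), 29 higher (0.174%) and 36 lower (0.216%) in iNKT17 cells; 22 of the 28 called genes were among them and 43 of the 65 were not called. A further 123 genes (0.738%) differed by at least 1 unit from gamma-delta replicate 1 and by under 0.5 from replicate 2, 63 higher (0.378%) and 60 lower (0.36%). The mirror set, carried by replicate 2 alone, held 51 genes (0.306%), 23 higher (0.138%) and 28 lower (0.168%). None of the genes carried by 1 gamma-delta array was called. The median absolute difference was 0.194 from replicate 1 and 0.154 from replicate 2. At a minimum of 2 log2 units, 11 genes were held on both arrays and 18 were carried by replicate 1 alone. With iNKT17 replicate 1 left out, 150 genes were held on both, 118 were carried by replicate 1 alone and 101 by replicate 2 alone.

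**Figure D2:**
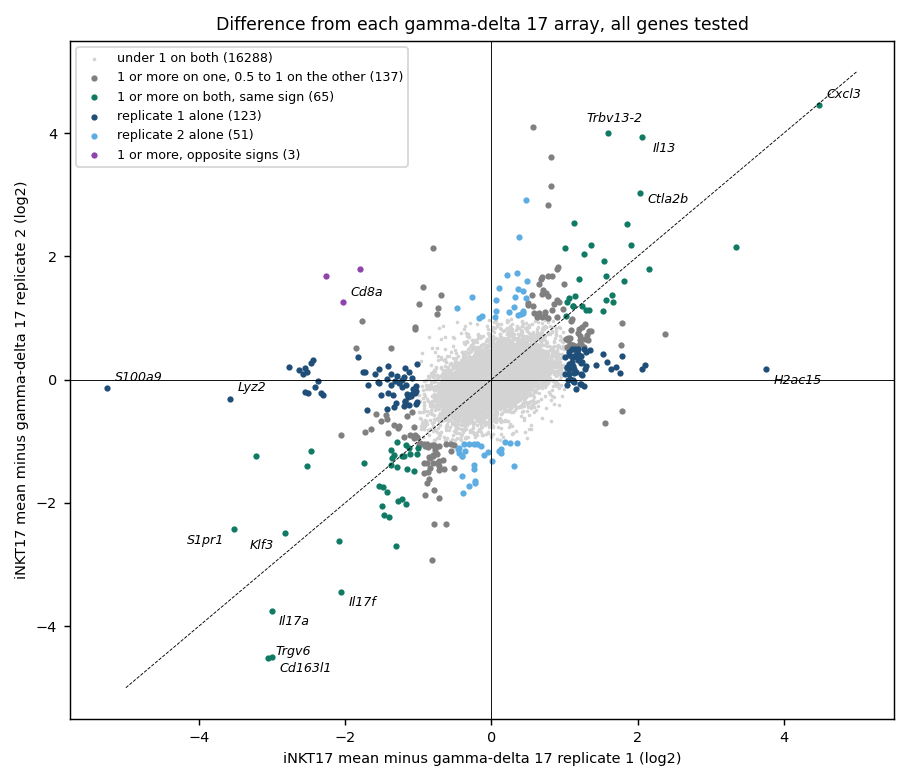
Difference of the B6 iNKT17 mean from gamma-delta 17 replicate 1 (x axis, log2) against that from replicate 2 (y axis, log2), 1 point per gene tested, coloured by class with the number of genes; the dashed line marks equal differences. Cxcl3 and the IL-17 genes lie where both arrays differ in the same direction, and S100a9, Lyz2 and H2ac15 lie along the x axis, where only replicate 1 differs.

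The signature cytokines of the type 17 fate were lower in iNKT17 cells. Il17a, which encodes IL-17A, read 5.54 and 4.93 on the iNKT17 arrays, against 8.24 and 8.98 on the gamma-delta arrays, a fall of 10.4-fold (log2 difference -3.38 ± 0.47 SE, limma adjusted p = 0.0180). Il17f, its neighbour and partner cytokine, read 5.15 and 4.62 in iNKT17 cells, against 6.94 and 8.33 in gamma-delta 17 cells (-2.75 ± 0.39, adjusted p = 0.0180). The iNKT17 levels of both genes lay nearer those of B6 ROR- cells, where Il17a read 3.62 and 4.41 and Il17f 4.10 and 4.38, than those of gamma-delta 17 cells. Il17a lost its call without gamma-delta replicate 2 (-3.01, adjusted p = 0.0654), iNKT17 replicate 1 (-3.68, 0.0650) or iNKT17 replicate 2 (-3.07, 0.277), and Il17f without iNKT17 replicate 1 (-3.01, 0.0650) or 2 (-2.49, 0.277).

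The start sites of Il17a and Il17f lie 53.4 kb apart on chromosome 1 with 0 genes between them, and their promoters are shown because the 2 genes moved together. Each run is 300 bases, 250 before to 50 after the start, from RefSeq on GRCm38.p6, read 5′ to 3′ on the gene's strand, at chr1:20730655-20730954 (plus strand) for Il17a and chr1:20784221-20784520 (minus strand) for Il17f. Capitals mark matches on either strand to any of 4 motifs searched: AGGTCA (a half-site of nuclear receptors), TATAAA (the TATA box), CACCC (a box of Krüppel-like factors) and a form of the NF-kB site (GGG, any 2 bases, then TTTCC).
Il17a: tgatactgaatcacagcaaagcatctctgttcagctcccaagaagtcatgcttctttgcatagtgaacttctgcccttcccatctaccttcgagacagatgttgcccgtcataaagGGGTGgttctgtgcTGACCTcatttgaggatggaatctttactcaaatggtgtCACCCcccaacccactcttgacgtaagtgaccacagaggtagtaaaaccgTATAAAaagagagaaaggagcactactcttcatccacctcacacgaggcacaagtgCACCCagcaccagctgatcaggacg
Il17f: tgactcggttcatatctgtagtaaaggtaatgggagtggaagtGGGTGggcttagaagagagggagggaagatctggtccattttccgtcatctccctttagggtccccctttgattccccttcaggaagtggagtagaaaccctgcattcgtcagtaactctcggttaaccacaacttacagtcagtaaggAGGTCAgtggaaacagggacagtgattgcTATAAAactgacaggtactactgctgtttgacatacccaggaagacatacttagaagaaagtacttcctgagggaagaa
AGGTCA was found in Il17a 120 bases before the start, on the minus strand of the gene, and in Il17f 58 bases before it, on the plus strand; 16.3% of 32851 promoters hold it. TATAAA was found 31 and 29 bases before the starts of Il17a and Il17f, and 13.6% of promoters hold it. CACCC matched 3 times in Il17a and 1 time in Il17f, and 57.5% of promoters hold it. These matches are descriptions of the letters in the window.

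No other member of the type 17 list passed. Among its 39 tested genes 0 were called higher and 2 lower, Il17a and Il17f. The median difference was -0.03, beside 0.01 over all genes tested. Il23r, the interleukin 23 receptor, read 9.9961 and 9.53 in iNKT17 cells and 9.96 and 10.29 in gamma-delta 17 cells, against 2.93 and 3.67 in ROR- cells. Il1r1, the interleukin 1 receptor, read 9.80 and 9.57 in iNKT17 cells and 9.61 and 10.20 in gamma-delta 17 cells. Neither receptor passed the test, and the arrays of the groups overlapped in both (-0.36 ± 0.95 for Il23r and -0.22 ± 0.49 for Il1r1). The cytokine Il22 read 8.19 and 7.90 in iNKT17 cells, against 7.61 and 6.61 in gamma-delta 17 cells (0.93 ± 1.06, adjusted p = 0.839). Ccr6, the homing receptor of type 17 cells, read 7.32 and 6.71 in iNKT17 cells, against 7.56 and 8.17 in gamma-delta 17 cells (-0.85 ± 0.31, adjusted p = 0.488). Sdc1, the syndecan that marks iNKT17 cells, read 8.91 and 8.86 in iNKT17 cells, against 7.55 and 7.76 in gamma-delta 17 cells. It was held on both arrays but did not pass (1.23 ± 0.56, adjusted p = 0.587), and a dimmer probe set of it differed by 0.85. A p that misses the threshold does not show that levels were equal.

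**Figure D3:**
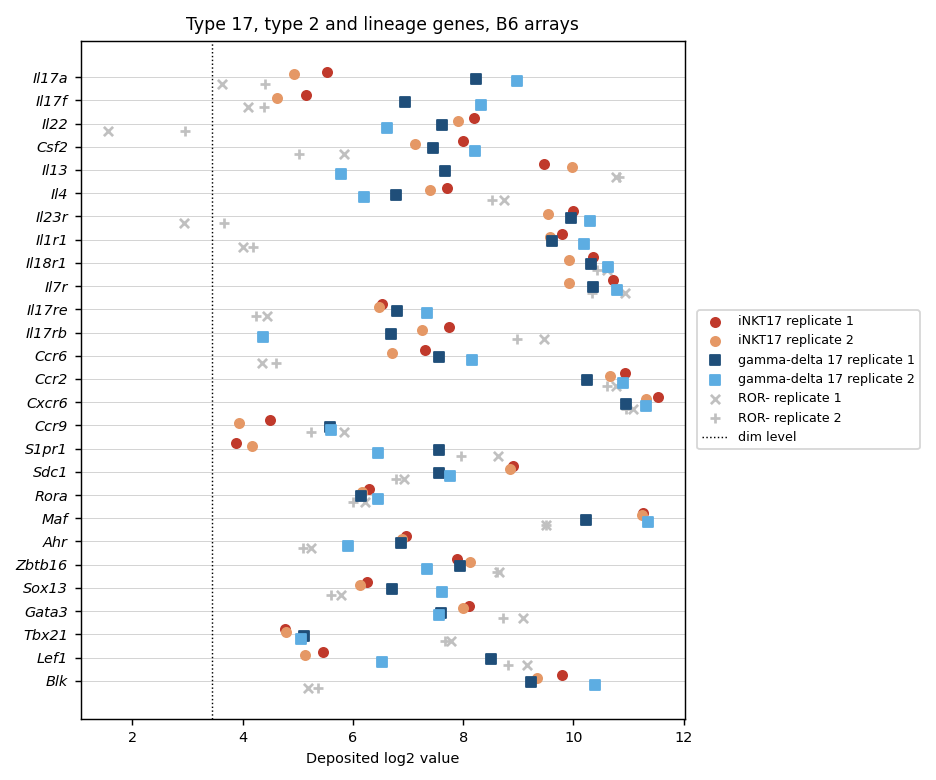
Deposited log2 value (x axis) of type 17, type 2 and lineage genes (rows) on the B6 iNKT17, gamma-delta 17 and ROR- arrays, with the dim level dotted. Il17a and Il17f separate the 2 type 17 cell types, while Il23r and Il1r1 stand near 10 in both and below 5 in ROR- cells.

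The gamma-delta genes Trgv6 and Cd163l1 were lower in iNKT17 cells. Trgv6, a variable segment of the gamma chain, read 5.08 and 4.64 in iNKT17 cells, against 7.92 and 9.38 in gamma-delta 17 cells (-3.79 ± 0.46, adjusted p = 0.00705), and lost its call without iNKT17 replicate 2 (-3.57, 0.130). Cd163l1, a scavenger receptor of gamma-delta T cells, read 6.56 and 6.41 in iNKT17 cells, against 9.48 and 10.99 in gamma-delta 17 cells, a fall of 13.5-fold (-3.75 ± 0.37, adjusted p = 0.00187). Both genes were called on this contrast, so their separation on the 4 arrays adds no support for the labels. Of the 9 tested members of the gamma-delta list, Cd163l1 was the 1 called lower and 0 were called higher (median -0.25). In the list, 3 of the 9 had differences above 0, and the median difference from gamma-delta replicate 1 was 0.10. Trgv6 is not on that list, which names 26 genes. Trgv5, another gamma-chain segment, was held on both arrays but did not pass (-2.0 ± 0.55, adjusted p = 0.295). Sox13, a transcription factor of IL-17-type gamma-delta cells, read 6.25 and 6.14 in iNKT17 cells, against 6.71 and 7.62 in gamma-delta 17 cells (-0.97 ± 0.24, adjusted p = 0.205). Its difference was -1.43 from gamma-delta replicate 2 and -0.51 from replicate 1.

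On the alpha-beta side, Trbv13-2, the beta-chain segment that many mouse iNKT cells use, read 8.59 and 8.69 in iNKT17 cells, against 7.04 and 4.63 in gamma-delta 17 cells. It was held on both arrays but did not pass (2.80 ± 0.53, adjusted p = 0.0841). The difference was 4.01 without gamma-delta replicate 1 and 1.60 without replicate 2. Its level on gamma-delta replicate 1 lay between that of replicate 2 and those of the iNKT17 arrays. Of the 18 tested members of the alpha-beta and iNKT list, 0 passed in either direction (median -0.01). Its members Cd8a and Cd8b1 changed direction with the array left out. They differed by 1.27 and 1.68 without gamma-delta replicate 1, and by -2.03 and -2.26 without replicate 2. Cd28, the costimulatory receptor, read 6.86 and 6.76 in iNKT17 cells, against 5.68 and 4.26 in gamma-delta 17 cells (1.84 ± 0.33, adjusted p = 0.0591). It passed with each array centred on its median (1.93, 0.0354) and with array weights (1.84, 0.0407). Its difference was 2.55 without gamma-delta replicate 1 and 1.13 without replicate 2. Zbtb16, which encodes the iNKT factor PLZF, read 7.89 and 8.13 in iNKT17 cells, against 7.95 and 7.34 in gamma-delta 17 cells (0.37 ± 0.20, adjusted p = 0.650).

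The largest rise among the called genes was in a chemokine. Cxcl3, a ligand of the neutrophil receptor CXCR2, read 9.14 and 9.35 in iNKT17 cells, against 4.76 and 4.79 in gamma-delta 17 cells, 22.1-fold higher (4.47 ± 0.38, adjusted p = 6.72e-04). It read 3.96 and 4.50 in B6 ROR- cells and averaged 5.07 in BALB/c iNKT17 cells, so both B6 iNKT17 arrays stood above those values. Cxcl2, another ligand of that receptor, read 7.10 and 6.20 in iNKT17 cells, against 5.08 and 4.96 in gamma-delta 17 cells; it was held on both arrays and did not pass (1.63 ± 0.43, adjusted p = 0.264). Their starts lie 117.8 kb apart on chromosome 5 with 2 genes between them. The promoters of this pair follow, in the same form and with the same 4 motifs in capitals, at chr5:90785851-90786150 for Cxcl3 and chr5:90903649-90903948 for Cxcl2, both on the plus strand.
Cxcl3: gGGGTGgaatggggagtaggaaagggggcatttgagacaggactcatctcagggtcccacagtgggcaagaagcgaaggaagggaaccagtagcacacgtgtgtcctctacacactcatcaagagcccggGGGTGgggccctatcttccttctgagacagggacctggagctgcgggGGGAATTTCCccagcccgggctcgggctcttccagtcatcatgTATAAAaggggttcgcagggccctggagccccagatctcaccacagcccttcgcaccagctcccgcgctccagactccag
Cxcl2: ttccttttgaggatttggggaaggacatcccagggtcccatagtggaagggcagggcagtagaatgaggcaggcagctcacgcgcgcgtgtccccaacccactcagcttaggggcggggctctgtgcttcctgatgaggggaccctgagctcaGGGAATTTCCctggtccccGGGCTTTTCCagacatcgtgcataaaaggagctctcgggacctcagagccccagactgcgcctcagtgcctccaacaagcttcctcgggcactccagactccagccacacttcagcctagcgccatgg
The NF-kB form was found in Cxcl3 73 bases before the start and in Cxcl2 97 and 78 bases before it, and 1.63% of promoters hold it. TATAAA was found 30 bases before the start of Cxcl3. CACCC matched 2 times in Cxcl3 and 0 times in Cxcl2, and AGGTCA was found in neither.

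The type 2 cytokine genes Il13 and Il4 had positive differences that did not pass. Il13, which encodes interleukin 13, read 9.47 and 9.98 in iNKT17 cells, against 7.67 and 5.79 in gamma-delta 17 cells (3.0 ± 0.55, adjusted p = 0.0669). It passed without BALB/c ROR- replicate 1 (3.0, adjusted p = 0.0478) and with array weights (3.0, 0.0482). Its difference was 3.93 without gamma-delta replicate 1 and 2.06 without replicate 2. Il4 read 7.71 and 7.40 in iNKT17 cells, against 6.78 and 6.19 in gamma-delta 17 cells (1.07 ± 0.20, adjusted p = 0.0842). Its difference was 1.36 without gamma-delta replicate 1 and 0.77 without replicate 2. Neither gene's arrays overlapped, which 2 arrays per group easily give. Among 17 tested type 2 genes, 0 passed in either direction and the median was 0.34.

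S1pr1 and Klf3 were among the largest falls in iNKT17 cells. S1pr1, a sphingosine 1-phosphate receptor needed for egress from lymphoid organs, read 3.89 and 4.18 in iNKT17 cells, against 7.56 and 6.46 in gamma-delta 17 cells, and stood at 8.62 and 7.96 in ROR- cells (-2.98 ± 0.42, adjusted p = 0.0192). Klf3, a Krüppel-like transcriptional repressor, had the smallest p of all genes: it read 4.55 and 4.51 in iNKT17 cells, against 7.35 and 7.01 in gamma-delta 17 cells, 6.28-fold lower (-2.65 ± 0.17, adjusted p = 9.28e-05). Its BALB/c iNKT17 mean was 4.56, level with the B6 iNKT17 arrays. The Klf3 promoter holds CACCC 5 times and none of the other 3 motifs. Ccr9, the receptor for the thymic and gut chemokine CCL25, read 4.50 and 3.93 in iNKT17 cells, against 5.59 and 5.60 in gamma-delta 17 cells (-1.38 ± 0.22, adjusted p = 0.0322). Klf2, which drives S1pr1, read 5.50 and 5.19 in iNKT17 cells, against 6.63 and 6.13 in gamma-delta 17 cells, and did not pass (-1.03 ± 0.62, adjusted p = 0.690). In the egress, residency and adhesion list, 0 of 30 tested members were called higher and 2 lower (median 0.03). In the chemokine receptor list, 0 of 18 were called higher and 1 lower, Ccr9 (median -0.17). S1pr1 lost its call without gamma-delta replicate 1 (-2.43, adjusted p = 0.0646), iNKT17 replicate 1 (-2.83, 0.141) or 2 (-3.12, 0.178). Ccr9 kept its call in 5 of 12 fits that left out 1 array, and its largest adjusted p was 0.411, without iNKT17 replicate 2.

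The other genes higher in iNKT17 cells had varied roles. Ctla2b, which encodes an inhibitor-like protein of cysteine proteases, read 6.58 and 6.07 in iNKT17 cells, against 4.29 and 3.29 in gamma-delta 17 cells (2.53 ± 0.27, adjusted p = 0.00332). App, the amyloid precursor protein gene, read 6.32 and 6.83 in iNKT17 cells, against 4.67 and 4.39 in gamma-delta 17 cells (2.04 ± 0.29, adjusted p = 0.0180). Tlr7, a sensor of single-stranded RNA, read 6.96 and 6.48 in iNKT17 cells, against 5.46 and 4.69 in gamma-delta 17 cells (1.65 ± 0.25, adjusted p = 0.0251). Klrb1b, an inhibitory receptor of the NK gene complex, read 7.92 on both iNKT17 arrays, against 6.67 and 6.72 in gamma-delta 17 cells (1.22 ± 0.18, adjusted p = 0.0224), and averaged 3.65 in BALB/c iNKT17 cells. The insulin receptor substrate Irs2 (1.25), the acyltransferase Glyat (1.19), the small GTPase Ralb (1.09), the receptor Tlr6 (1.04) and the dehydrogenase Aldh3a1 (0.89) also passed. A dimmer probe set of Ralb differed by 0.23. Apart from Ctla2b, each gene of this group lost its call without iNKT17 replicate 2, where adjusted p-values ran from 0.101 for Tlr7 to 0.460 for Aldh3a1.

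The remaining calls were lower in iNKT17 cells, many from low levels. Casp1, the protease that matures interleukin 1 beta, read 3.09 and 3.15 in iNKT17 cells, against 4.58 and 5.32 in gamma-delta 17 cells (-1.83 ± 0.22, adjusted p = 0.00685); its iNKT17 level lies below the dim level. Ms4a6b, a membrane protein gene, read 6.40 and 6.06 in iNKT17 cells, against 8.75 and 7.64 in gamma-delta 17 cells (-1.97 ± 0.30, adjusted p = 0.0257). Csn3, a casein gene, read 3.70 and 3.49 in iNKT17 cells, against 5.03 and 5.42 in gamma-delta 17 cells (-1.63 ± 0.15, adjusted p = 0.00101). All 3 were lower on both iNKT17 arrays than on either gamma-delta array. The same holds for every call in this direction, so it adds no support. Auts2 (-1.81), the calcium-binding Ocm (-1.62), Apol7b (-1.55), Fam169b (-1.35), the morphogen Bmp4 (-1.32), Ly86 (-1.03), the exchange factor Arhgef5 (-0.89) and the fucosyltransferase Fut8 (-0.82) completed the list. Ocm and Fam169b averaged below the dim level in iNKT17 cells, which makes the size of either fall uncertain. Casp1 and Fam169b lay below the dim level on all iNKT17 arrays of both strains and on both B6 ROR- arrays. Their BALB/c ROR- means were below it too, and both gamma-delta arrays lay above it. These 2 genes met the filter through the group where they are high, so their p-values and calls are descriptions and add no support. Casp1 lost its call without iNKT17 replicate 1 (-1.80, adjusted p = 0.0650) or 2 (-1.86, 0.101), and Ms4a6b kept its call in 6 of 12 such fits, with -1.80 and an adjusted p of 0.373 without iNKT17 replicate 2. The other 8 genes all lost their calls without iNKT17 replicate 2, with adjusted p-values from 0.0910 for Fam169b to 0.457 for Apol7b.

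Among genes held on both gamma-delta arrays but not called, Tnfsf4, which encodes the ligand OX40L, read 6.51 and 6.92 in iNKT17 cells, against 4.86 and 4.19 in gamma-delta 17 cells (2.19 ± 0.51, adjusted p = 0.175). Tnfrsf9, the receptor 4-1BB, read 7.24 and 8.13 in iNKT17 cells, against 6.15 and 5.76 in gamma-delta 17 cells (1.73 ± 0.55, adjusted p = 0.391). Lef1, a transcription factor of immature and naive T cells, read 5.46 and 5.13 in iNKT17 cells, against 8.51 and 6.53 in gamma-delta 17 cells (-2.23 ± 0.46, adjusted p = 0.109). The arrays within a group lay up to about 2 units apart in these genes. The groups did not overlap, which 2 arrays per group easily give. Klrk1, the activating receptor NKG2D, read 3.72 and 4.02 in iNKT17 cells, against 5.03 and 5.33 in gamma-delta 17 cells (-1.31 ± 0.25, adjusted p = 0.0857). Plxdc2 read 4.49 and 3.99 in iNKT17 cells, against 6.32 and 6.85 in gamma-delta 17 cells (-2.35 ± 0.61, adjusted p = 0.244). Tnfsf4 passed without BALB/c iNKT17 replicate 1 (2.19, 0.0318), which enters only through the spread.

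Most immediate-early and cell cycle genes had positive differences, but none of them was called. Of the 29 tested immediate-early genes, 27 had a difference above 0 and the median was 0.49, beside 0.01 over all genes, but 0 were called. Fos, an early response gene, read 6.11 and 6.26 in iNKT17 cells, against 4.52 and 4.92 in gamma-delta 17 cells (1.46 ± 0.81, adjusted p = 0.660), and Fosb read 6.70 and 6.71 in iNKT17 cells, against 4.89 and 5.11 in gamma-delta 17 cells (1.70 ± 0.83, adjusted p = 0.617). Both genes were held on both gamma-delta arrays. Of the 42 cell cycle genes, 40 had a difference above 0 (median 0.43) and 0 were called. Their mean was 7.88 and 8.62 on the iNKT17 arrays, against 7.77 and 7.88 on the gamma-delta arrays, so iNKT17 replicate 2 stood apart and replicate 1 did not. The part of that array in the cell cycle values was not tested.

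The genes carried by gamma-delta replicate 1 alone included some genes of neutrophils and the myeloid gene Lyz2. Of 15 tested macrophage, monocyte and dendritic markers, Lyz2 was the 1 in this class. S100a9, a calcium-binding protein of neutrophils, read 3.98 and 3.52 in iNKT17 cells, against 9.0 and 3.89 in gamma-delta 17 cells. Lyz2, the lysozyme of myeloid cells, read 3.17 and 3.39 in iNKT17 cells, against 6.86 and 3.59 in gamma-delta 17 cells, and the neutrophil granule gene Ngp read 3.43 and 3.52 in iNKT17 cells, against 6.25 and 3.27 in gamma-delta 17 cells. In each, only gamma-delta replicate 1 was high. S100a8, the partner of S100a9, was set aside by the filter because it exceeds the dim level on 1 array: it read 2.14 and 2.31 in iNKT17 cells, against 9.30 and 2.29 in gamma-delta 17 cells, with 2.44 the highest of the other 11 arrays. Camp, another granule gene, read 2.68 and 2.78 in iNKT17 cells, against 5.36 and 2.83 in gamma-delta 17 cells.

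Some genes of cytotoxic lymphocytes were high on the same array. Klrd1, the NK receptor chain CD94, read 3.48 and 3.49 in iNKT17 cells, against 6.03 and 3.69 in gamma-delta 17 cells, and 10.09 and 9.90 in ROR- cells. Nkg7, a granule gene of cytotoxic cells, read 5.98 and 5.99 in iNKT17 cells, against 8.49 and 6.21 in gamma-delta 17 cells, and the chemokine Xcl1 read 5.46 and 6.07 in iNKT17 cells, against 8.24 and 5.51 in gamma-delta 17 cells. Cd27, a costimulatory receptor that gamma-delta 17 cells are known to lack, read 5.02 and 4.42 in iNKT17 cells, against 7.14 and 4.85 in gamma-delta 17 cells. On gamma-delta replicate 2 these 4 genes lay within 0.5 of the iNKT17 mean. Of 33 tested type 1 and cytotoxic genes, 8 were lower in iNKT17 cells than on replicate 1 alone, beside 0.36% of all genes tested. None of the 33 was called. Over that list gamma-delta replicate 1 was the highest of the 4 arrays in 23 genes and lay below both iNKT17 arrays in 7. It was at least 1 unit above the other 3 arrays in 6. The shares of all tested genes with these rankings are not given here. Gzmb, which encodes the protease granzyme B, read 11.11 and 11.37 in iNKT17 cells, against 10.46 and 9.56 in gamma-delta 17 cells, and the pore protein gene Prf1 averaged 5.93 in iNKT17 cells, against 5.56 and 5.66 on the gamma-delta 17 arrays. Neither of these cytotoxic genes was higher on gamma-delta replicate 1 than in iNKT17 cells.

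**Figure D4:**
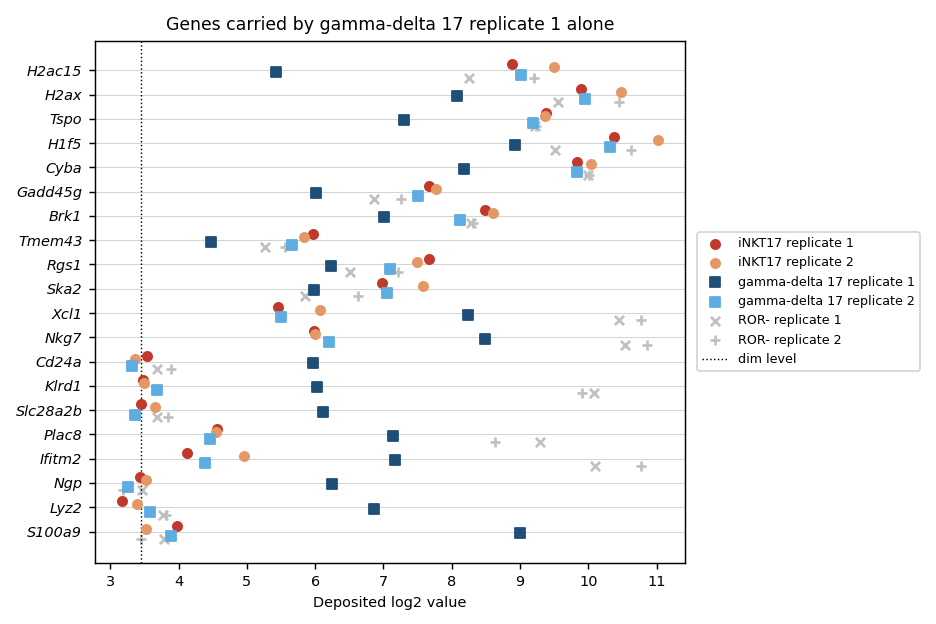
Deposited log2 value (x axis) of the 20 named genes that only gamma-delta 17 replicate 1 separates from iNKT17 cells (rows), on the B6 iNKT17, gamma-delta 17 and ROR- arrays, with the dim level dotted. In each row gamma-delta 17 replicate 1 stands apart while replicate 2 lies near the iNKT17 points.

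The CD8 genes differed in opposite directions on the 2 gamma-delta arrays. Cd8a, a chain of the CD8 coreceptor, read 6.74 and 6.73 in iNKT17 cells, against 8.76 and 5.47 in gamma-delta 17 cells, and Cd8b1, the other chain, read 6.33 and 5.64 in iNKT17 cells, against 8.24 and 4.30 in gamma-delta 17 cells. The difference of Cd8a was -0.38 ± 0.70 (adjusted p = 0.904) with both arrays, 1.27 without replicate 1 and -2.03 without replicate 2. Its direction therefore depends on the array.

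Some markers of other cells moved with gamma-delta replicate 1. The 14 neutrophil and mast markers averaged 3.25 and 3.30 on the iNKT17 arrays, against 4.61 and 3.19 on the gamma-delta arrays. Gamma-delta replicate 1 exceeded the other 3 arrays by at least 1 log2 unit in 4 of the 14, which were S100a8, S100a9, Camp and Elane. The neutrophil gene Ly6g read 3.61 and 4.13 in iNKT17 cells, against 3.92 and 3.55 in gamma-delta 17 cells, and the receptor Cxcr2 read 4.06 and 4.19 in iNKT17 cells, against 4.13 and 4.01 in gamma-delta 17 cells. Retnlg, Mcpt4 and Cpa3 were below the dim level on all 4 arrays. The 13 immature thymocyte markers averaged 4.54 and 4.43 in iNKT17 cells, against 5.60 and 4.26 in gamma-delta 17 cells, and 5 of the 13 were at least 1 unit higher on gamma-delta replicate 1 than on the other 3 arrays. In this list Dntt, the polymerase of receptor rearrangement, read 3.12 and 3.31 in iNKT17 cells, against 5.52 and 3.46 in gamma-delta 17 cells, while Rag2 lay below the dim level on all 4 arrays. The 12 NK and CD8 markers averaged 4.54 and 4.40 in iNKT17 cells, against 5.31 and 4.31 in gamma-delta 17 cells. Gamma-delta replicate 1 was the highest of the 4 arrays in 9 of the 12 and lay below both iNKT17 arrays in 3. It exceeded the other 3 arrays by at least 1 unit in 4, which were Cd8a, Cd8b1, Fcer1g and Tyrobp. Cd8a and Cd8b1 are in both lists and are also among the 5 immature thymocyte markers counted above. The shares of all tested genes that match these marker counts are not given here. The part of these markers of other cells in the results carried by gamma-delta replicate 1 was not tested. In bulk RNA, more cells of a type and more RNA per cell cannot be told apart.

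**Figure D5:**
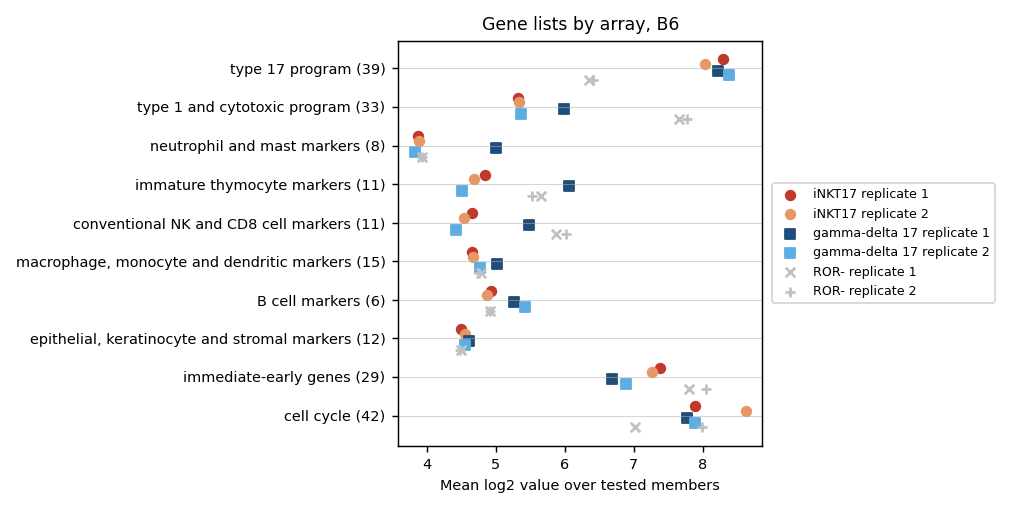
Mean log2 value over the tested members (x axis; number in brackets) of 10 gene lists (rows) on the B6 iNKT17, gamma-delta 17 and ROR- arrays. Gamma-delta 17 replicate 1 stands above both iNKT17 points in the neutrophil and mast, immature thymocyte and NK and CD8 lists. The same holds, for both gamma-delta 17 arrays, in the type 1 and cytotoxic, macrophage, B cell and epithelial lists. In the cell cycle list iNKT17 replicate 2 stands highest.

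Other genes were low on gamma-delta replicate 1 alone. The histone gene H2ac15 read 8.88 and 9.50 in iNKT17 cells, against 5.43 and 9.02 in gamma-delta 17 cells, and H2ax read 9.89 and 10.48 in iNKT17 cells, against 8.08 and 9.95 in gamma-delta 17 cells. Tspo, a mitochondrial membrane protein, read 9.38 and 9.36 in iNKT17 cells, against 7.31 and 9.19 in gamma-delta 17 cells, and Cyba, a subunit of the phagocyte oxidase, read 9.83 and 10.05 in iNKT17 cells, against 8.18 and 9.83 in gamma-delta 17 cells. All 4 were lower on replicate 1 than on the other 3 arrays. Among the 63 genes of this direction, gamma-delta replicate 1 was the lowest of the 12 arrays in 32. Among the 60 of the other direction it was the highest of the 12 in 22. In the mirror set, gamma-delta replicate 2 was the lowest of the 12 in 12 of 23 genes and the highest in 22 of 28. Maf, a transcription factor of type 17 cells, read 11.27 and 11.24 in iNKT17 cells, against 10.22 and 11.34 in gamma-delta 17 cells, and a dimmer probe set of it differed by -0.01.

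Without gamma-delta replicate 1, which leaves replicate 2 as the only gamma-delta array, 63 genes passed, 32 higher and 31 lower, of which 20 were among the 28. The newly called genes included Ctla2a (4.10), the ligand gene Cd40lg (2.84), the adaptor Sh2d1a that iNKT cells need (1.83), the receptor Cd6 (1.67) and the scavenger receptor Cd36 (-2.93). Ctla2a read 8.99 and 8.58 in iNKT17 cells, against 8.22 and 4.69 in gamma-delta 17 cells, so replicate 1 lay near the iNKT17 arrays. Without gamma-delta replicate 2, 55 genes passed, 13 higher and 42 lower, of which 15 were among the 28.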

How the data were processed

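RNA of 12 samples was hybridised to whole-transcript arrays. The authors deposited 1 table of processed values, taken here as log2; oligo is the tool named, per the submitters' processing notes, while the sources used here give neither its version nor the summarisation or the log base. The values were used as they stand. Of 41345 probe sets, 23521 had 1 symbol in the platform annotation, 1814 several and 16010 none; 23328 gene IDs matched RefSeq of GRCm38.p6 and 0 symbols changed. They covered 22180 genes, 1082 with more than 1 probe set, of which the brightest by 12-array mean was kept. Genes entered the test if 2 or more arrays exceeded the 30th percentile (log2 3.45), which left 16667 genes and set aside 5513.

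A group-means model over all 12 arrays (5 groups) was fitted with limma 3.58.1 in R 4.3.3 (lmFit and eBayes, 7 residual and 4.5 prior degrees of freedom), with p-values adjusted by Benjamini-Hochberg over all genes tested and a threshold of 0.05; the script was tested on simulated data. Errors are standard errors (SE). With 2 arrays per group, the number of arrays limits the precision. A fit without 1 iNKT17 or gamma-delta array leaves 1 array in that group, so its p-values hold none of that group's own spread. A gene was held on both gamma-delta arrays where the iNKT17 mean differed from each by at least 1 log2 unit in the same direction, and carried by 1 array alone where it differed by at least 1 from that array and by under 0.5 from the other.

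Named genes were the 15 largest rises and 15 largest falls among the calls, the 10 each way held on both arrays, the 10 each way carried by gamma-delta replicate 1 and 5 each way by replicate 2, up to 5 called members of each of 31 gene lists, and a set of anchor genes, leaving out predicted and clone-named genes; others named in the text were chosen after their values were seen. The members and lists were chosen with earlier results of these data known. All 4 promoter motifs searched, in 5 promoters, are reported; the promoters and motifs were chosen after the gene values were seen. Alternatives were the arrays in the fit, scaling, filter, probe-set rule, eBayes options, array weights, a replicate block, each array left out and the minimum difference.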

Additional observations from a re-analysis of the deposited data

How the results depend on the processing

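The 28 calls became 2 with the 4 arrays of the comparison or with the 6 B6 arrays alone, where the construction leaves fewer samples for the spread. Scaling, filter, probe-set rule, eBayes options and array weights gave 26 to 39 calls; median centring of the arrays gave a split of 13 higher and 16 lower, against 10 and 18. Leaving out 1 array gave 5 to 63 calls, and Cxcl3 and Klf3 alone kept their calls in all 22 alternatives other than the crossed block. Same-numbered samples did not deviate together between iNKT17 and gamma-delta 17 (correlation of deviations -0.12) or between gamma-delta 17 and ROR- (-0.01), while iNKT17 and ROR- gave 0.47. A replicate block gave 13 calls, all among the 28, and a crossed replicate block, added after seeing the data, gave 15, of which 14 were among the 28. Genes held on both gamma-delta arrays numbered 63 to 67 under scaling, filter and probe-set alternatives (37 higher and 30 lower when centred), 62 to 150 with 1 iNKT17 array left out, 19 at a minimum of 1.5 and 11 at 2 log2 units. Genes carried by gamma-delta replicate 1 alone numbered 174 when centred, 34 at a minimum of 1.5 and 18 at 2, and 118 to 128 with 1 iNKT17 array left out. Genes carried by replicate 2 alone, 51 with all arrays, numbered 42 to 101 with 1 iNKT17 array left out, 10 at a minimum of 1.5 and 2 at 2. Cd8a, -0.38 with all arrays, reversed to 1.27 without gamma-delta replicate 1 and stood at -2.03 without replicate 2. Apart from the fits with fewer samples or a larger minimum, the cause of these changes was not tested. The 2 arrays per group and the dim level limit what can be seen.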

Other observations

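Probe sets without a gene symbol here also separated the cell types. In a fit over all 41345 probe sets, 31 of the 16010 without a symbol had an adjusted p under 0.05. Of these, 11 rose and 20 fell in iNKT17 cells, and 5 differed by at least 5 log2 units; 20 of the 23521 with 1 symbol passed. Probe set 17300122 read 2.56 and 2.35 on the iNKT17 arrays, against 9.18 and 10.48 on the gamma-delta arrays (-7.38 ± 0.31, limma adjusted p = 9.46e-06). Probe set 17306330 read 3.33 and 3.34 on the iNKT17 arrays, against 9.92 and 10.62 on the gamma-delta arrays (-6.94 ± 0.20, adjusted p = 3.30e-07). These differences exceed that of any named gene that passed. The files used here do not pair these probe sets with genes.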
